A study of Homo sapiens with 4 samples.

Results

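Genes of homologous recombination, the Fanconi anaemia pathway and mismatch repair were examined in HCT116, an established human line from a colon carcinoma that is known to lack functional mismatch repair. The 32 members were listed by name and function, with earlier results of these arrays known. A probe set carrying a single gene symbol was found for 28 of the 32, among 19775 genes with such a probe set. Each gene was read from its probe set with the highest mean over the 4 arrays, and 24 members had a mean signal above 300 units and were tested, among 8721 genes tested. XRCC3, FANCB, FANCC and MSH3 lay below that level, PMS2 shared its probe sets with a second gene symbol, and BRCA2, FANCA, FANCD2 and PMS2 were not analysed here.

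Untreated cultures were compared, 2 grown as monolayers and 2 grown as multicellular spheroids (MCS), with 1 array for each and each from an independent culture of the same parental line with no added transgene or knockout named in the labels. The MCS were formed from single-cell suspensions in wells coated against attachment, and such spheroids are known to hold a proliferating rim around a quiescent, poorly supplied core. The comparison was made to see how gene expression differs between the growth forms. RNA came from whole cultures, so fewer dividing cells and less RNA per cell cannot be told apart, and rim and core were not separated.

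Homologous recombination repairs broken chromosomes and collapsed replication forks by copying a sister chromatid, so it works mainly in S and G2 phase. BRCA1 and its partners prepare the break and load a recombinase onto single-stranded DNA, accessory factors and DNA translocases drive strand exchange, and the BLM complex takes the joined molecules apart. The Fanconi pathway unhooks crosslinks between DNA strands by attaching ubiquitin to FANCI and FANCD2, and mismatch repair corrects errors left by the replication machinery.

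The arrays had been scaled to one trimmed mean signal (499.9 units), and 27.5% to 30.0% of their probe sets were above 300 units. The labelled growth forms differed in 8 of 8 tested hypoxia markers, all higher in MCS with a median log2 difference of 2.47. With scaling to spike-in controls 6 of 7 tested hypoxia markers were higher, with a median of 1.77. Of 11 epithelial markers, EPCAM, KRT8, KRT18, KRT19, CDH1, CLDN3 and CLDN4 passed the signal filter, while the intestinal markers CDX2, KRT20, VIL1 and CEACAM5 did not, and KRT19, CDH1, CLDN3 and CLDN4 were higher in MCS (summed signal of all 11, 81200 and 88956 units in monolayers, 94569 and 98943 in MCS), whereas 2 were higher and 2 lower with scaling to spike-in controls. Of 13 stromal, immune and endothelial markers with a probe set, 12 were below the filter at 1.23 to 199 units, and COL1A1 was above it and higher in MCS, though not called with scaling to spike-in controls. The summed signal of these 13 was 1076 and 1611 units in monolayers and 2753 and 3071 in MCS. For ACTB, the ratio of 3' to 5' control signal ran from 2.34 to 2.64 among monolayers and from 2.82 to 3.0 among MCS, and for GAPDH from 1.02 to 1.07 and from 0.921 to 0.931. The part of any of these in the results below was not tested.

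Most of the tested members were lower in MCS. Of 24 tested members, 19 were lower, 0 were higher and 5 were not called (limma, adjusted p under 0.05), where 20.6% of all genes tested were lower and 19.0% higher. At an unadjusted limma p under 0.05 the counts of members were the same, 19 lower and 0 higher. The shares of all genes at that looser threshold were not computed, so these counts have no background to be set against. Every call after adjustment also passes that threshold, so the counts are no further support. The median difference of the tested members was -1.07 on the log2(signal + 32) scale, MCS minus monolayer, against -0.030 for all genes tested. The median log2 signal of the members was 10.81 and 10.84 on the monolayer arrays and 9.63 and 9.87 on the MCS arrays, whereas that of all tested genes was 10.36 to 10.39 on every array. Both MCS arrays lay below both monolayer arrays for 20 members, where 36.6% of all tested genes did so, and 13 members differed by more than -1, where 3.88% of all tested genes did so. A member could pass the signal filter through its monolayer level, as FANCM did, or through its MCS level, as FANCF did. These counts therefore describe the 24 tested members and not all 32.

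**Figure D1:**
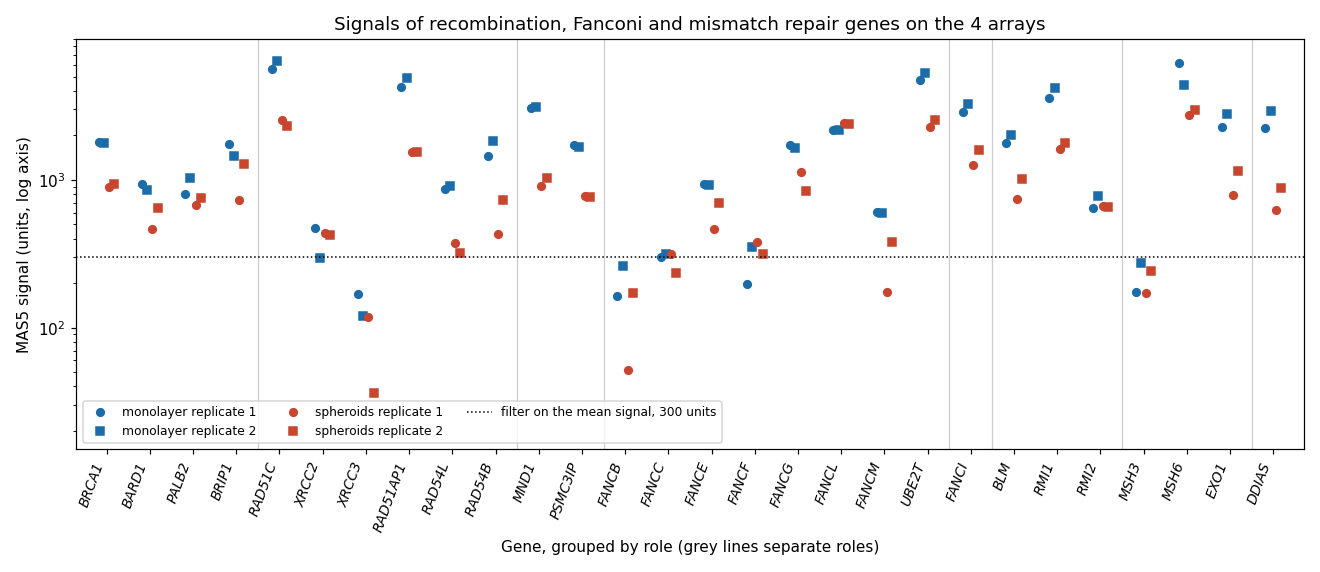
MAS5 signal (y, log axis, units) of the 28 members with a probe set (x, grouped by role) on each of the 4 arrays, monolayers in blue and MCS in red, with a dotted line at 300 units. For DDIAS, MND1, RAD51AP1 and RAD51C the red points lie well below the blue ones, for FANCL, FANCF and XRCC2 they do not, and XRCC3, FANCB, FANCC and MSH3 lie near or below the line; levels of different genes come from different probe sets and cannot be compared.

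When each array was left out in turn, the median of the members ran from -1.10 to -0.93, against -0.046 to 0.0022 for all genes tested. Added Bacillus RNA controls gave 1.87 times more signal in MCS than in monolayers, and scaling to them moved the median of all genes to -0.91 and that of the members to -1.92, with 20 of 25 tested members lower and 0 higher. Among all genes, the split of 1799 lower and 1656 higher became 3726 and 142 with the spike-in scaling (42.3% lower). With scaling to the array median it became 2457 and 809 (28.1% lower). The members lay 1.04 below all genes in the deposited scaling (-1.07 against -0.030) and 1.01 below them with the spike-in scaling. Scaling multiplies all genes of an array by the same factor, so this gap was nearly fixed in advance and is no check. All 12 proliferation markers, among them MKI67, TOP2A and CCNB1, were also lower, with a median difference of -1.18 and a summed signal of 138483 and 151791 units in monolayers against 70152 and 71868 in MCS. How much of the members' difference goes with the share of dividing cells was not tested.

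Since 19 of the 24 tested members were lower, the members' promoters were searched for 3 kinds of word that are known from genes of the cell cycle, on both strands and over 250 bases before and 50 after the first listed start site (RefSeq, GRCh38.p14). The E2F-like words were TTGGCGC or TTCGCGC or TTCCCGC or TTGCCGC, and E2F factors are known to control genes of S phase. Promoter entries were matched for 25 members, 17 of them called lower. An E2F-like word was found in 10 of the 17 (58.8%), in 3 of 4 tested members that were not called (FANCF, FANCL and XRCC2), and in 3 of 4 below the signal filter. The share was 22.0% among the promoters of 7205 tested genes and 17.1% among 15843 protein-coding promoters. The word CCAAT was found in 10 of the 17 (58.8%) against 37.6% for tested genes, and the CHR words, TTTGAA or TTCGAA, in 2 of the 17 (11.8%) against 11.3%. A CCAAT match can lie beside or across another word, and the words themselves can share bases. The matches describe letters in these windows and do not show binding.

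The 250 bases before the start site are shown for the 4 members with the largest decreases among those called lower with an E2F-like word in that stretch, so that the words can be seen in place. They are written 5' to 3' in the direction of the gene, with the bases of E2F-like words in capitals (GRCh38.p14).
MND1, chr4:153344438-153344687, plus strand: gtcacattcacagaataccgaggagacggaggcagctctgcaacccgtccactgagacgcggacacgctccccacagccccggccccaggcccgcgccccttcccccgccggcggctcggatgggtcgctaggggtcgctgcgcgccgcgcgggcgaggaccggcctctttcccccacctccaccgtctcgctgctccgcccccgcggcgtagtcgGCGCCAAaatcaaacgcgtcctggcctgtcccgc
RAD51AP1, chr12:4538640-4538889, plus strand: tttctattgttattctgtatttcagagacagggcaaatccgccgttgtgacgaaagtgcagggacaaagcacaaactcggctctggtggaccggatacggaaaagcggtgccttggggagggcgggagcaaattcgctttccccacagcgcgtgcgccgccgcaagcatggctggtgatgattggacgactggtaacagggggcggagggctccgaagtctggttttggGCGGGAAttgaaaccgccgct
RAD54L, chr1:46247438-46247687, plus strand: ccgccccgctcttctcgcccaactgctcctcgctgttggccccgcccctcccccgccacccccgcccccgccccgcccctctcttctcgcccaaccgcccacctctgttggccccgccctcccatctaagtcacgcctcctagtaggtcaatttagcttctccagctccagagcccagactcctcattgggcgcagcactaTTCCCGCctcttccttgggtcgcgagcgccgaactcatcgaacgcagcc
BLM, chr15:90717096-90717345, plus strand: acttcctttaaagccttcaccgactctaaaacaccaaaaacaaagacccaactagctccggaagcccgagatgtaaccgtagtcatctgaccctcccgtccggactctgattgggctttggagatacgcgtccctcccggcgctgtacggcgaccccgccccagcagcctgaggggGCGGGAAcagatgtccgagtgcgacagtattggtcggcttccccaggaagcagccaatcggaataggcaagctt
Counted from the start site, the word lay at -34 to -28 in MND1, at -21 to -15 in RAD51AP1, at -49 to -43 in RAD54L and at -74 to -68 in BLM. MND1 and RAD54L have 2 listed starts each, and the first was used. DDIAS, with the largest decrease of the members, had CCAAT words but no E2F-like word in its window.

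**Figure D2:**
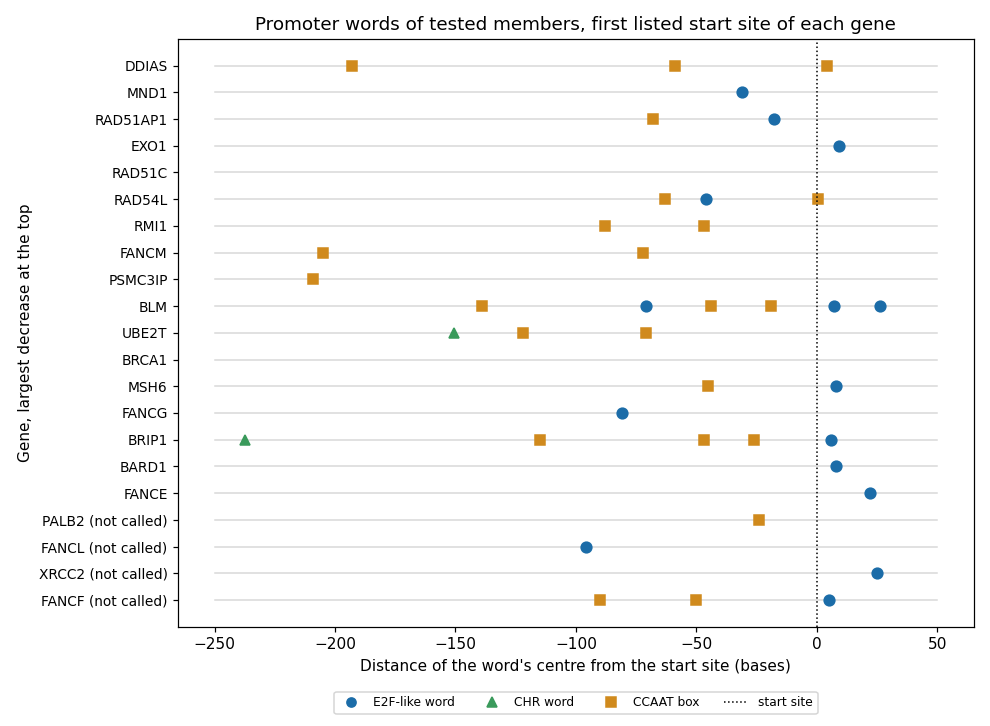
Position of each word's centre relative to the first listed start site (x, bases) for the 21 tested members with a promoter entry (y, largest decrease at the top), circles for E2F-like words, squares for CCAAT and triangles for CHR words. Circles appear both in members called lower and in 3 of the 4 that were not called, and RAD51C and BRCA1 show none of the words.

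In the BRCA1 group, 3 of 4 tested members were lower and the median difference was -0.69. BRCA1, a ubiquitin ligase subunit that directs breaks towards recombination, had signals of 1802 and 1782 in monolayers and 898 and 934 in MCS. The MCS arrays were close to each other and to 1.96-fold below the monolayers, a difference of -0.94 ± 0.18 (SE, n = 2 per group, limma adjusted p = 0.00119). A second, dimmer probe set of BRCA1 differed by -0.73 (limma adjusted p = 0.0524 over all probe sets). BRIP1, a helicase that binds BRCA1, had signals of 1739 and 1456 against 726 and 1285, so that the MCS arrays were themselves far apart and 1 of them came near the monolayers. Its difference was -0.70 ± 0.24 (limma adjusted p = 0.0369). The call was lost without monolayer replicate 1 (-0.58) or MCS replicate 1 (-0.30), and the difference was -1.10 without MCS replicate 2. A second probe set of BRIP1 was lower by more, at -1.29 (limma adjusted p = 0.0337 over all probe sets, where the brighter one had 0.0551).

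BARD1, the partner of BRCA1 in the ligase, had signals of 931 and 853 against 465 and 642, with no overlap between the groups. The difference was -0.67 ± 0.22 (limma adjusted p = 0.0295), and it was not called without monolayer replicate 1 (-0.61), monolayer replicate 2 (-0.74) or MCS replicate 1 (-0.45). PALB2, which links BRCA1 to BRCA2, was not called. Its signals were 808 and 1028 against 675 and 759, a difference of -0.34 ± 0.21 (limma adjusted p = 0.224) with a 95% confidence interval of -0.79 to 0.12, and with the spike-in scaling it was called lower (-1.20). Leaving out the first monolayer array gave -0.50 and leaving out the second gave -0.17, and PALB2 was called in neither case. The change of BRCA1 minus that of PALB2 within the arrays was -0.61 ± 0.18 (SE with 2 degrees of freedom, not from limma), with no overlap between the groups.

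The genes of strand exchange held 2 of the 4 largest decreases among the members, and 4 of 5 tested were lower (median -1.28). RAD51AP1, which stimulates the recombinase, had signals of 4261 and 4918 in monolayers and 1547 and 1533 in MCS. The MCS values were nearly equal and 2.98-fold below the monolayers, a difference of -1.55 ± 0.16 (limma adjusted p = 1.68e-05) that ranked 15th in size among decreases of all 8721 genes. RAD54B, a DNA translocase that acts during strand exchange, had signals of 1454 and 1823 against 427 and 727. The difference was -1.49 ± 0.25, and the MCS arrays were less alike than for RAD51AP1. RAD54L, its relative, was lower by a similar amount (-1.28 ± 0.22), with signals of 869 and 907 against 372 and 322.

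RAD51C, a relative of the recombinase that helps to load it, had signals of 5592 and 6348 against 2556 and 2307, and a difference of -1.28 ± 0.15 (limma adjusted p = 4.70e-05). Its second probe set was lower as well (-0.95). XRCC2, another relative of the recombinase, was not called. It was read from a single probe set of the _x_at type with a mean of 407 units. Without _x_at and _s_at probe sets XRCC2 was not tested. Its signals were 471 and 297 against 435 and 425, the groups overlapped, and the difference was 0.18 ± 0.27 (limma adjusted p = 0.616) with a 95% confidence interval of -0.39 to 0.76. Its sign turned with scaling to the array median (-0.062) or the spike-in controls (-0.65) and without monolayer replicate 2 (-0.12). XRCC3, which acts with RAD51C, was below the signal filter at 36.1 to 169 units, and with no filter it was not called (-0.79 ± 0.49).

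MND1 and PSMC3IP encode the 2 subunits of the HOP2-MND1 complex, known for its role in meiotic recombination, and both were lower in MCS. MND1 had signals of 3068 and 3118 in monolayers and 904 and 1024 in MCS, a 3.21-fold difference (-1.65 ± 0.17, limma adjusted p = 1.85e-05). PSMC3IP had signals of 1729 and 1665 against 775 and 765 (-1.11 ± 0.18, limma adjusted p = 4.87e-04). In both genes the replicates were close together and the groups far apart. The change of MND1 minus that of PSMC3IP within the arrays was -0.54 ± 0.10 on the log2 scale (SE with 2 degrees of freedom, not from limma).

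The genes that attach ubiquitin in the Fanconi pathway split. Of 6 tested among the core complex, FANCM and UBE2T, 4 were lower and 2 were not called. UBE2T, the ubiquitin-conjugating enzyme of the pathway, had signals of 4765 and 5313 against 2279 and 2543, with a difference of -1.05 ± 0.15 (limma adjusted p = 1.90e-04). FANCL, the ubiquitin ligase subunit that works with UBE2T, had signals of 2184 and 2178 in monolayers and 2437 and 2377 in MCS. It was not called, at 0.14 ± 0.15 (limma adjusted p = 0.501), with a 95% confidence interval of -0.20 to 0.48. Its MCS arrays lay slightly above the monolayers in the deposited scaling, and its sign turned with scaling to the array median (-0.12) or the spike-in controls (-0.75). The change of UBE2T minus that of FANCL within the arrays was -1.19 ± 0.12 on the log2 scale (SE with 2 degrees of freedom, not from limma).

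FANCM, the translocase that brings the core complex to DNA, had signals of 604 and 598 in monolayers and 175 and 381 in MCS. Its MCS mean of 278 units lay below the signal filter, so it was tested only through its monolayer level. The difference was -1.11 ± 0.31 (limma adjusted p = 0.0127), set largely by the first MCS array, without which it was -0.62 and not called. FANCG, a scaffold subunit, had signals of 1735 and 1631 against 1132 and 847 (-0.76 ± 0.19, limma adjusted p = 0.00799), and was not called without MCS replicate 2 (-0.56). FANCE, which links the core to FANCD2, had signals of 931 and 924 against 465 and 696, with no overlap, and differed by -0.67 ± 0.23 (limma adjusted p = 0.0337). It missed the threshold when monolayer replicate 1 (-0.67), monolayer replicate 2 (-0.68) or MCS replicate 1 (-0.40) was left out. FANCF, an adaptor subunit, was close to the filter and not called, with signals of 198 and 354 against 380 and 315 that overlapped. Its monolayer mean of 276 units lay below the filter, so it was tested only through its MCS level. Its difference was 0.34 ± 0.30, with a 95% confidence interval of -0.31 to 0.99, and turned in sign with the spike-in scaling (-0.47) and without monolayer replicate 1 (-0.029). FANCB and FANCC were below the filter, at 51.5 to 262 and 233 to 316 units.

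FANCI, which is clamped onto DNA together with FANCD2 once ubiquitin is attached, was lower in MCS. Its signals were 2873 and 3266 against 1265 and 1593, a difference of -1.09 ± 0.17 (limma adjusted p = 4.34e-04). All 3 of its probe sets above the filter were lower, at -0.87 to -1.24. USP1, the enzyme that removes this ubiquitin and no member, was lower too (-0.80 ± 0.14), whereas its cofactor WDR48 was not called (0.27 ± 0.21).

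Of the complex that dissolves joined recombination intermediates, BLM and RMI1 were lower and RMI2 was not called. BLM, a helicase, had signals of 1776 and 2010 against 745 and 1020 (-1.09 ± 0.20, limma adjusted p = 0.00106). RMI1, a scaffold subunit, had signals of 3556 and 4178 against 1618 and 1765 (-1.17 ± 0.16, limma adjusted p = 1.46e-04). RMI2, the small subunit bound to RMI1, had signals of 648 and 781 against 670 and 655, which overlapped. Its difference was -0.099 ± 0.21 (limma adjusted p = 0.738), with a 95% confidence interval of -0.55 to 0.36. The change of RMI1 minus that of RMI2 within the arrays was -1.08 ± 0.078 on the log2 scale (SE with 2 degrees of freedom, not from limma).

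In mismatch repair, the 2 members that passed the filter were lower. EXO1, the exonuclease that removes the strand with the error and also resects breaks, had signals of 2276 and 2775 against 786 and 1153 (-1.37 ± 0.21, limma adjusted p = 2.99e-04). MSH6, a subunit of the complex that recognizes single mispaired bases, had signals of 6208 and 4385 against 2746 and 2956. The monolayer arrays were farther apart than the MCS arrays, and the difference was -0.87 ± 0.17 (limma adjusted p = 0.00189). Its second probe set was lower as well (-0.72). MSH3, which recognizes larger loops, lay at 171 to 276 units and was not called with no filter (-0.097 ± 0.37).

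DDIAS, known as a suppressor of apoptosis after DNA damage, had the largest decrease of the members. Its signals were 2228 and 2910 in monolayers and 624 and 879 in MCS, a 3.42-fold difference (-1.74 ± 0.21, limma adjusted p = 6.62e-05), which had rank 4 among decreases of all genes tested. Leaving out each array in turn gave -1.50 to -1.97.

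**Figure D3:**
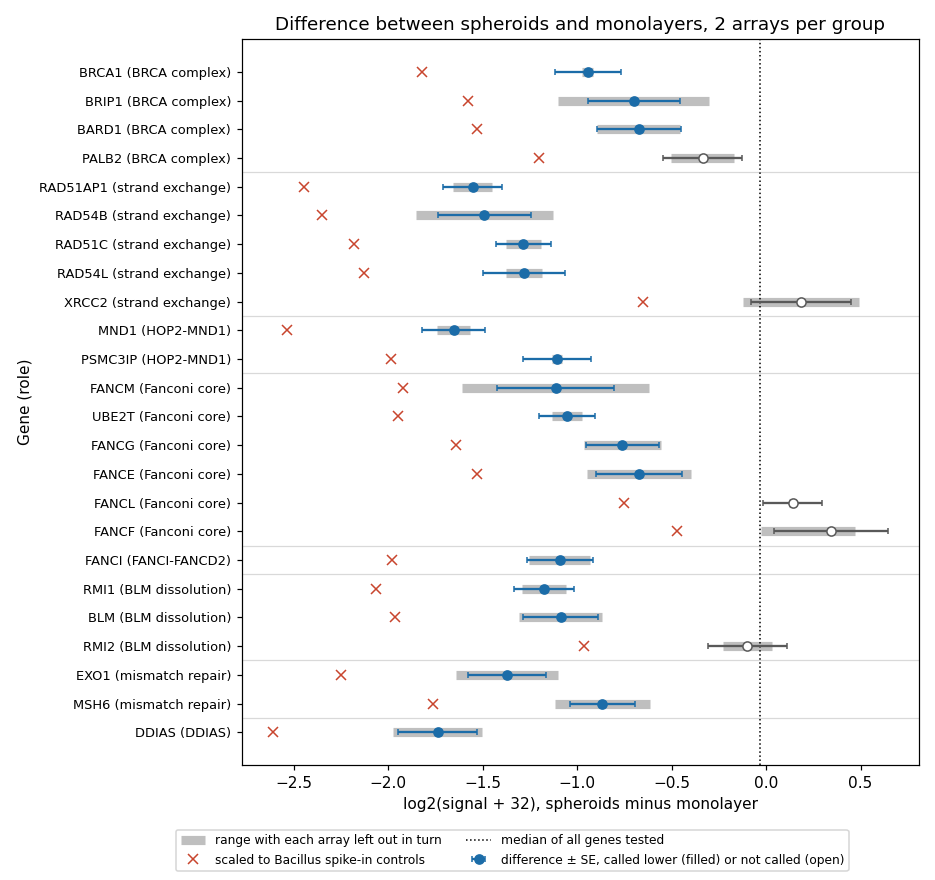
Log2 difference, MCS minus monolayer, with its SE (x) for the 24 tested members by role (y), filled where called lower and open where not called. Grey bars span the values with each array left out in turn. Crosses show the values after scaling to the spike-in controls, and the dotted line the median of all genes (-0.030). Every cross lies left of its point. The open points PALB2, XRCC2, FANCL, FANCF and RMI2 lie farthest right in their roles. The 95% confidence interval of PALB2 (-0.79 to 0.12) covers the values of BARD1 and BRIP1.

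The gaps between partners were computed for 10 pairs, which were picked after the members' values had been seen. The SE of a gap came from the 4 arrays of that pair alone, so it is imprecise and cannot be compared with limma's SE. The gaps printed above were those with the smallest SE of the 10. The SE of the others ran from 0.20 (BRCA1 minus BARD1, gap -0.27) to 0.48 (RAD54L minus RAD54B, gap 0.21). Between them lay BLM minus RMI2 (-0.99 ± 0.24), RAD51C minus XRCC2 (-1.47 ± 0.40), FANCG minus FANCF (-1.10 ± 0.42) and EXO1 minus MSH6 (-0.51 ± 0.45). With 2 arrays per group an exact two-sided permutation test cannot go below p = 0.333. That value was reached by 8 of the pairs (adjusted p = 0.417 over the 10), while RAD54L against RAD54B and EXO1 against MSH6 overlapped between the groups. Members with several probe sets above the filter numbered 7. All their probe sets were lower in FANCI, MSH6, PSMC3IP and RAD51C, 1 was lower and 1 not called in BRCA1, BARD1 and BRIP1, and 0 members had probe sets called in opposite directions.

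Other genes of the same pathways, listed by function, moved less uniformly. Of 28 tested, 11 were lower, 2 were higher and 15 were not called, with a median of -0.18, and the lower count was 7 without MCS replicate 1 or MCS replicate 2. UHRF1, which binds crosslinked and hemimethylated DNA, RAD18, a ubiquitin ligase of stalled forks, and CENPX, a partner of FANCM, had the largest decreases, at -1.22 ± 0.14, -1.10 ± 0.21 and -1.05 ± 0.12. The higher genes were the helicase HELQ (0.69 ± 0.20) and the mismatch repair gene MLH3 (0.69 ± 0.24). Among all genes tested 20.6% were lower and 19.0% higher in the deposited scaling. With quantile normalization, the mean of probe sets or no filter 1 gene of this list was higher, with no intensity trend 2 and with a replicate block 3. With scaling to the array median 0 were higher and 12 of 29 lower (median -0.45, all genes 28.1% lower). With the spike-in scaling 0 were higher and 15 of 29 lower (median -1.05, all genes 42.3% lower). MRE11 (-0.20 ± 0.22) and the nuclease FAN1 (-0.16 ± 0.24) were not called, and NBN, the partner of MRE11 in sensing breaks, was lower (-0.44 ± 0.16).

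Genes of the replication fork and of origins were mostly lower too. Of 42 tested, 38 were lower and 0 higher, with a median of -0.96, and the median was -1.22 with scaling to the array median and -1.83 with the spike-in scaling. MCM10, which helps to start replication forks, CDC6, a loader of the replicative helicase, and CDC45, a subunit of the active helicase, had the largest decreases (-1.65, -1.58 and -1.43). Genes of end joining, a repair route that needs no sister chromatid, had 5 of 13 tested lower and 0 higher with a median of -0.35, and 3 lower without monolayer replicate 2 or MCS replicate 1. Scaling to the array median gave 7 of 13 lower (median -0.61), where 28.1% of all genes tested were lower. Scaling to the spike-in controls gave 10 of 13 lower (median -1.24), where 42.3% of all genes tested were lower. Among the end joining genes XRCC4 (-1.02 ± 0.22), APTX (-0.88 ± 0.17) and PAXX (-0.59 ± 0.22) were lower in the deposited scaling. PRKDC (-0.21 ± 0.14) and LIG4 (-0.0036 ± 0.22) were not called. Genes of base and nucleotide excision repair had 10 of 34 tested lower (29.4%) and 5 higher, with a median of -0.30. Among all genes tested 20.6% were lower and 19.0% higher in the deposited scaling. The glycosylase NEIL3 (-1.0 ± 0.20), the nucleotide excision factor ERCC8 (-0.93 ± 0.29) and the glycosylase NTHL1 (-0.92 ± 0.22) were lower, and ERCC5 (0.87 ± 0.22), ERCC1 (0.78 ± 0.18), UVSSA (0.63 ± 0.23), XPC (0.50 ± 0.18) and CETN2 (0.49 ± 0.17) were higher. The lower count was 5 without MCS replicate 1, the higher count fell to 1 without monolayer replicate 2 and to 2 without either MCS array, and with scaling to the array median the counts were 17 lower and 0 higher (median -0.57), and with the spike-in scaling 21 lower and 0 higher (median -1.20). Differences between these lists and the members were not tested.

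**Figure D4:**
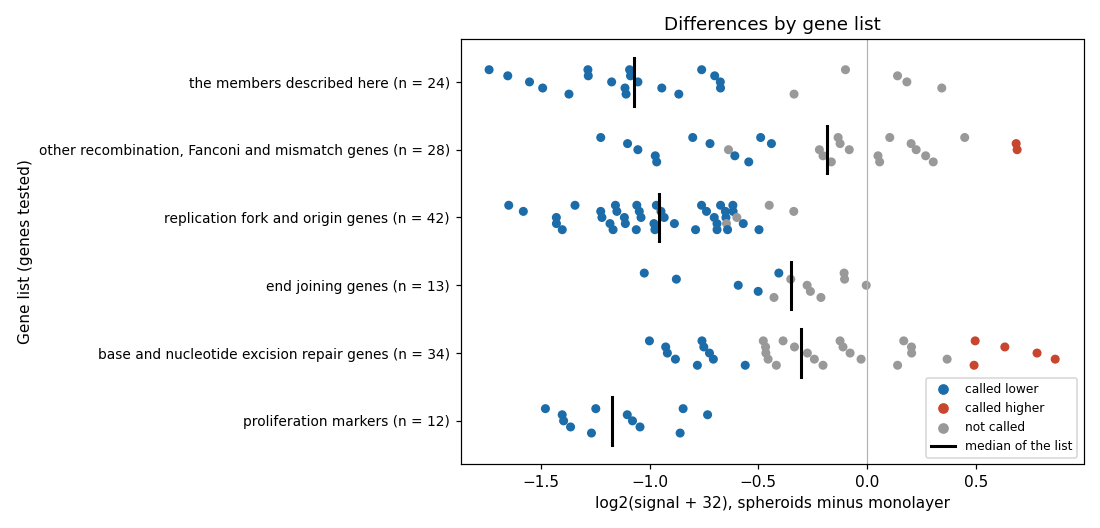
Log2 difference, MCS minus monolayer (x), of each tested gene in 6 lists (y, number tested in brackets), with points in blue (lower), red (higher) or grey (no call) and the median of a list as a vertical black line. Medians lie at -1.07 for the members, -0.96 for replication genes and -1.18 for proliferation markers, and at -0.18 to -0.35 for the other repair lists; with scaling to the spike-in controls 0 genes of these lists were higher.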

How the data were processed

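Biotin-labelled cRNA from total RNA of HCT116 cultures was hybridized to 1-colour Affymetrix oligonucleotide arrays, 1 per culture. The authors normalized them with MAS5 (version not given in the sources used here), and the values they deposited are signal intensity on a linear scale, one per probe set and with one mean for every array, so that differences are relative to total signal. Present calls were not used here. Of 54675 probe sets, 41091 had 1 symbol in the platform annotation and 62 were controls, and 0 symbols changed when matched by gene identifier to RefSeq. No build is named for the values.

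The scale used was log2(signal + 32), which understates changes of dim genes. The brightest probe set of each gene was kept if its mean exceeded 300 units, after the threshold in the methods. limma (version 3.58.1, under R 4.3.3) tested the difference for 8721 genes (lmFit, eBayes with intensity trend, two-sided, Benjamini-Hochberg over all genes), with 2 residual degrees of freedom and a prior of 10.5. The fit was also run on data simulated with its own estimated spreads, which checks the code and not the calls made here. The median standard error was 0.19, and the number of arrays limits precision. Arrays of a group correlated across genes at 0.984 and 0.979, and 0 values were identical.

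The members and lists were chosen with earlier results of these data known. All members are accounted for. Signals are printed for the 3 largest differences of each role and members not called, and from other lists mainly the 3 largest changes. NBN, MRE11, FAN1, USP1, WDR48, PRKDC and LIG4 were chosen after their values were seen. Other thresholds, added constants, ways of scaling and choices of probe set were tried, as were no trend, a replicate block, each array left out and the methods' t-test, which the study names for other assays.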

Additional observations from a re-analysis of the deposited data

How the results depend on the processing

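The 24 tested members had 19 lower and 0 higher with added constants of 1 and 100, with quantile normalization, with each array scaled to one median and with the mean of a gene's probe sets. In these settings 19.5% to 28.1% of all genes tested were lower. With the replicate number of the titles as a block the counts were also 19 lower and 0 higher; deviations of same-numbered arrays correlated at 0.32, a number alone does not pair cultures, and all genes called lower rose from 1799 to 2301. The block gave 8 of 13 end joining genes and 15 of 34 excision repair genes lower, against 5 and 10 without it, and with no filter 3 of 16 and 7 of 35 were lower. There were 15 of 28 members lower with no signal filter (all genes 6.66%) and 19 of 28 with a filter at 100 units (15.7%). The count was 14 of 19 without _x_at and _s_at probe sets (18.3%) and 18 of 24 with no intensity trend (17.5%). The methods' t-test gave 0 members lower after adjustment (1 of all genes was lower). Unadjusted, it gave 12 lower and 1 higher, where 1430 of all 8721 genes were lower and 1218 higher. The median of the members was -0.91 with no filter and with a filter at 100 units, -1.33 scaled to the array median (all genes -0.29) and -1.92 scaled to the spike-in controls. With each array left out in turn the median ran from -1.10 to -0.93. No called member turned in sign under these alternatives. Members that turned in sign were not called: FANCL at -0.12 and XRCC2 at -0.062 scaled to the array median, FANCF at -0.47, FANCL at -0.75 and XRCC2 at -0.65 scaled to the spike-in controls, and, with an array left out, FANCF (-0.029 to 0.47), RMI2 (-0.23 to 0.030) and XRCC2 (-0.12 to 0.49). Calls of 14 members held without each array and those of BARD1, BRIP1, FANCE, FANCG and FANCM did not. With no filter, BARD1, BRIP1, FANCE and FANCM were not called, and BRIP1 was also not called with no trend or without _x_at and _s_at probe sets. PALB2 was called with the spike-in scaling (-1.20). The cause of these changes was not tested, except that more genes were tested with no filter. With a single array left in a group, its spread was taken from the other group.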
